A study of Homo sapiens with 24 samples.

Results

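The integrin and laminin subunits are the chains of the main cell adhesion receptors and of the basement membrane proteins that several of these receptors bind. The set was a list of 35 genes given by symbol, of which 34 were matched to an Ensembl gene of the count files, 24 integrin and 10 laminin genes out of 51715 genes in each file. Of all genes, 33158 had a count in at least 1 library. ITGB3 was not matched and was not analysed here. Poly(A)+ RNA was sequenced from 3 untreated human cancer cell lines: A-431, which comes from an epidermoid carcinoma, U-2 OS, which comes from an osteosarcoma, and U-251MG, which comes from a glioblastoma. Each line gave 4 libraries of total RNA from whole cells and 4 of RNA labelled cytoplasmic, 24 in all, numbered 1 to 24 by the labels. Every group is a single established line in culture, so a difference between groups is a difference between these lines and not between their tissues of origin. The study's methods call the libraries of a group biological replicates from separate cultivations, but the labels do not tie a library to a culture, and total and cytoplasmic libraries are not paired.

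Integrins are heterodimers of an α and a β chain that span the plasma membrane, with the outer part bound to matrix and the inner tail bound to talin and other adaptors. β1 pairs with most α chains, αV pairs with several β chains, and β4 pairs with α6 in the hemidesmosomes that anchor epithelia. Laminins are trimers of an α, a β and a γ chain that build the basement membrane sheet, and the α chain carries the main integrin binding domains. Laminin 332, made of α3, β3 and a γ chain that is not on the list, is the typical laminin under stratified epithelium. Laminins with α4 are known from vessels and from tumours of glial origin, and α1 is the chain of early embryonic basement membranes.

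Gene counts per library ranged from 19918911 to 32394170, with a median of 27407478. The U-2 OS cytoplasmic library 13 has no entry among the read totals given by the study and was left out, so that 23 libraries were compared and this group holds 3. The methods also state that a cytoplasmic extract of U-2 OS with the electrophoresis profile of total RNA was discarded, and whether it is library 13 is not given. The labels name Trizol extraction and a paired-end protocol, whereas the methods name column kits, a mild detergent lysis for the cytoplasmic fraction and single reads, and which applies to these libraries cannot be told from them. In library 13, reads outside the annotated exons of genes made up 18.6% of the file's entries, against 14.6 to 15.4% in the other 3. Of 27 members with a mean level of at least 1 CPM (a gene's count scaled to the total of its library, with TMM factors) in that group, library 13 lay above the other 3 in 10, below them in 11 and within their range in 6. The same count over all genes was not made, so these numbers do not tell whether the members stand out in library 13. Summed squamous epithelial markers lay between 16686 and 18972 CPM in the A-431 total libraries and at 727 CPM or lower in total RNA of the other lines, with EGFR making up most of this sum (16079 CPM). Of the 10 squamous markers, 7 were called higher and 2 lower in A-431 than in U-2 OS, and 9 higher than in U-251MG. CDH1 was at 541 and EPCAM at 556 CPM in A-431 total RNA. The keratins KRT14 and KRT17 were lower there than in U-2 OS, at 0.105 against 9.96 and 108 against 459 CPM. The summed osteoblast and mesenchyme markers overlapped between U-2 OS and U-251MG, but 7 of the 9 were called between them, with COL1A1 higher in U-2 OS (1229.7 against 12.7 CPM) and COL1A2 in U-251MG (587 against 0.597). The glial sum in total RNA, which is mostly vimentin, was 6692 to 7452 CPM in U-251MG, 2053 to 2147 in U-2 OS and 4.68 or lower in A-431. Leukocyte and endothelial marker sums were at most 7.81 and 5.02 CPM in any group. The nuclear-retained RNAs NEAT1 and MALAT1 went against the fraction labels: mean NEAT1 was 699 CPM in the A-431 libraries labelled cytoplasmic against 216 in total RNA, 699 against 478 in U-2 OS and 1136 against 450.3 in U-251MG. MALAT1 lay in the same direction, with 32.3 against 11.8, 52.6 against 29.6 and 51.6 against 20.4 CPM. The cytoplasmic libraries are therefore named here as labelled, and ratios of total over cytoplasmic RNA are ratios between libraries with these labels.

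Start-site sequences were available for 25 of the 34 members, from RefSeq (GRCh38.p14), and were placed on GRCh37 by an exact match. They are shown for LAMA3, ITGB6 and ITGA2, members that were higher in A-431 than in both other lines, and for LAMA2, a laminin α gene that was highest in U-2 OS, as a contrast. Only bases before the start that lie outside annotated exons are printed, 5′ to 3′ on the strand of the gene. Capitals mark TGANTCA, the letters of an AP-1 site, which read the same on both strands.
LAMA3: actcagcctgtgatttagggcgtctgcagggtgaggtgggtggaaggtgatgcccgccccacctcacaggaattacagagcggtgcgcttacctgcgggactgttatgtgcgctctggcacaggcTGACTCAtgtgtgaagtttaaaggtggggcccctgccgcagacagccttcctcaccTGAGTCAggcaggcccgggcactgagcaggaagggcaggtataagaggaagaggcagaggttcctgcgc
ITGB6: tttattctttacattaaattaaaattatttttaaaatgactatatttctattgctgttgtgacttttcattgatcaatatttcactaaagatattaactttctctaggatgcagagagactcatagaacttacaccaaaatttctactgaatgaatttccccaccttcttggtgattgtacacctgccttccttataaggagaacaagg
ITGA2: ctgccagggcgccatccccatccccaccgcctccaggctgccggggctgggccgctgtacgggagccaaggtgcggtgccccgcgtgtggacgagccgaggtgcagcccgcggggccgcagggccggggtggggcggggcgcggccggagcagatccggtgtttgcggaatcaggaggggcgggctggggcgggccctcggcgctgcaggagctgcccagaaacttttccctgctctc
LAMA2: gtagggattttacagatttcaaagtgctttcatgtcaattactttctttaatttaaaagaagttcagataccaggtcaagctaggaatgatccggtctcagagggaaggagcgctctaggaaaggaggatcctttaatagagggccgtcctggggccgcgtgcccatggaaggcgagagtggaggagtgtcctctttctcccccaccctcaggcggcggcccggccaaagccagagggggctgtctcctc
The LAMA3 stretch lies at chr18:21452734-21452983 on the plus strand and holds 2 matches, beginning 125 and 69 bases before the start. This start is that of the shorter LAMA3 transcript, LAMA3-201, and is 183567 bases inside the gene from its annotated 5′ end. The ITGB6 stretch lies at chr2:161056825-161057033 on the minus strand. The full window of 250 bases before its start has a GC content of 30.0%, no CpG and no match. The ITGA2 stretch lies at chr5:52284932-52285169 on the plus strand. Its full 250-base window has a GC content of 76.4%, 26 CpG and no AP-1 match. The same window has 4 matches to GGGCGG, the letters of a GC box. For ITGB6 and ITGA2 these windows include bases that are not printed. The LAMA2 stretch at chr6:129204033-129204282 on the plus strand has no AP-1 match. The 25 members had 32 windows, and a member was counted if any of its windows matched. Only LAMA3 and LAMB3 held the AP-1 letters, and 14 members held GGGCGG. Of 35116 windows of 250 bases before RefSeq starts, 6.57% held the AP-1 letters and 42.6% held GGGCGG, and the median window had 11 CpG. These percentages are of single windows and not of genes, so the 2 kinds of count are not on the same footing. A match is a description of these letters and not of factor binding.

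The lines were first compared in total RNA, where each line has 4 libraries. A member was called when edgeR's adjusted p was under 0.001 and the difference at least 2-fold. Of the 34 members, 31 passed the filter on low counts and ITGA8, ITGAL and ITGB7, all near 0, did not. A-431 was higher than U-2 OS in 7 and lower in 14, where 16.4% of all 18610 tested genes were called higher and 22.4% lower. Against U-251MG, A-431 was higher in 6 and lower in 9, with 16.4% and 14.6% of all genes called. U-251MG was higher than U-2 OS in 8 and lower in 8, with 13.6% and 22.1% of all genes called. The median log2 ratio of the tested members was -0.49 for A-431 over U-2 OS, -0.23 for A-431 over U-251MG and 0.18 for U-251MG over U-2 OS, while that of all tested genes was -0.07, 0.00 and -0.09. These 3 comparisons share libraries. Levels in a bulk library do not tell whether fewer cells made a transcript or each cell held less of it. Between genes, levels are given per kb of the Ensembl canonical transcript. Gene positions are those of GRCh37.

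**Figure D1:**
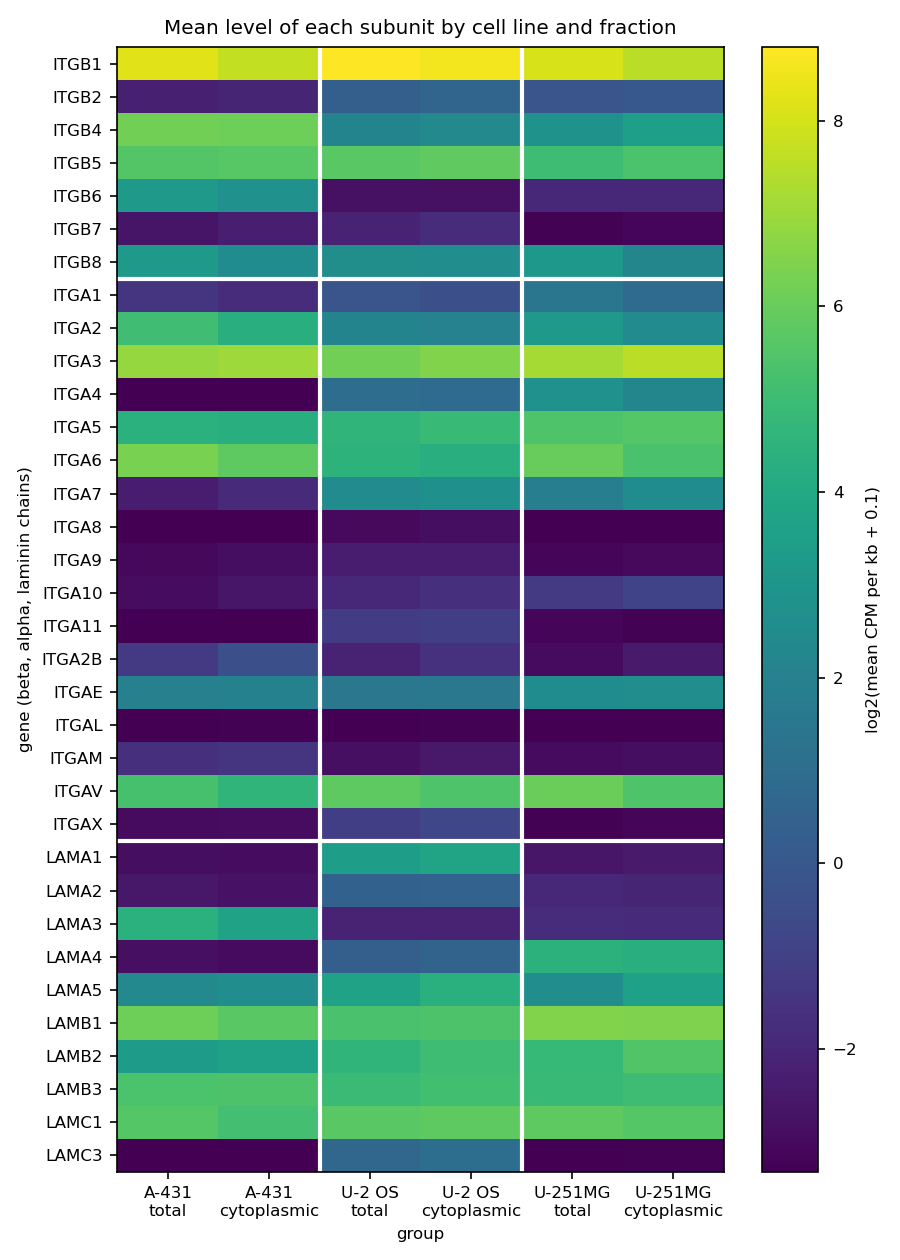
Mean level of the 34 matched members in the 6 groups, as log2 of CPM per kb of canonical transcript plus 0.1, with genes in rows and groups in columns. ITGB1 is high in every group, while LAMA3, ITGB6 and ITGB4 are highest in A-431, LAMA1 and LAMC3 in U-2 OS and LAMA4 and ITGA4 in U-251MG.

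ITGB1, the shared β chain (ENSG00000150093, chr10:33176201-33294720), had the highest mean level per kb of any member in each of the 6 groups, but in the U-251MG cytoplasmic libraries it did not differ from ITGA3 beyond their spread (184.2 ± 8.30 and 183.7 ± 11.8 CPM per kb, SD, n = 4). It was counted at 1109.6, 1078, 1211 and 1194 CPM in the A-431 total libraries, 1709, 1599, 1580.5 and 1743 in U-2 OS and 959, 991, 1027 and 1045 in U-251MG. The 3 lines did not overlap, and U-2 OS was highest. The A-431 over U-2 OS log2 ratio was -0.51 ± 0.06 (edgeR adjusted p = 2.4e-08) and that of U-251MG over U-2 OS was -0.73 ± 0.06 (edgeR adjusted p = 3.5e-11), both under the 2-fold threshold. Per kb, ITGB1 made up 32.7% of the summed members in A-431, 50.9% in U-2 OS and 30.2% in the U-251MG libraries.

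ITGB4, the hemidesmosome β chain (ENSG00000132470, chr17:73717408-73753899), stood at 435, 455, 386 and 450.2 CPM in A-431, 25.4, 24.2, 29.3 and 24.4 in U-2 OS and 47.5, 46.9, 48.9 and 32.6 in U-251MG. Every A-431 library lay above every other library. A-431 was 16.98-fold higher than U-2 OS (edgeR adjusted p = 6.3e-17) and 10.03-fold higher than U-251MG (edgeR adjusted p = 1.0e-15). U-251MG library 8 was low at 32.6 CPM beside a mean of 47.8 in the other 3. ITGB6, the epithelial partner of αV that binds and activates latent TGF-β (ENSG00000115221, chr2:160956178-161056824), was at 43.7, 38.3, 49.4 and 40.1 CPM in A-431, 0.263, 0.213, 0.182 and 0.174 in U-2 OS and 0.883, 0.679, 0.579 and 0.758 in U-251MG. The A-431 level was 208-fold that of U-2 OS (edgeR adjusted p = 2.2e-23) and 60.6-fold that of U-251MG (edgeR adjusted p = 1.0e-22), and U-251MG was above U-2 OS as well (3.42-fold, edgeR adjusted p = 8.2e-06). It was the gene with the greatest A-431 over U-2 OS ratio of all members.

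ITGB5, another αV partner and a receptor for vitronectin, had 210.2, 212, 202 and 209 CPM in A-431, 229.7, 229.8, 247 and 209 in U-2 OS and 136, 153, 158 and 134 in U-251MG. A-431 and U-2 OS overlapped, with a log2 ratio of -0.11 ± 0.07 (95% interval -0.25 to 0.02), and U-251MG was lowest by less than 2-fold. The αVβ8 receptor also frees TGF-β, and its β chain ITGB8 was at 81.4, 88.9, 78.5 and 87.0 CPM in A-431, 59.2, 57.4, 53.6 and 56.6 in U-2 OS and 71.8, 88.1, 71.2 and 84.2 in U-251MG. The A-431 and U-251MG ranges overlapped and no comparison reached 2-fold. ITGB2, the leukocyte β chain, was low throughout, at 0.301 ± 0.0801 CPM in A-431, 3.28 ± 0.512 in U-2 OS and 2.33 ± 0.0901 in the U-251MG libraries (SD, n = 4). It was lower in A-431 than in U-2 OS (10.6-fold, edgeR adjusted p = 5.6e-13) and than in U-251MG (7.52-fold, edgeR adjusted p = 4.2e-11). ITGB7, which pairs with α4 and αE on lymphocytes, averaged 0.346 CPM or less in total RNA of any line, and shares exon sequence with ZNF740 on the opposite strand, which counting without strand cannot separate.

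**Figure D2:**
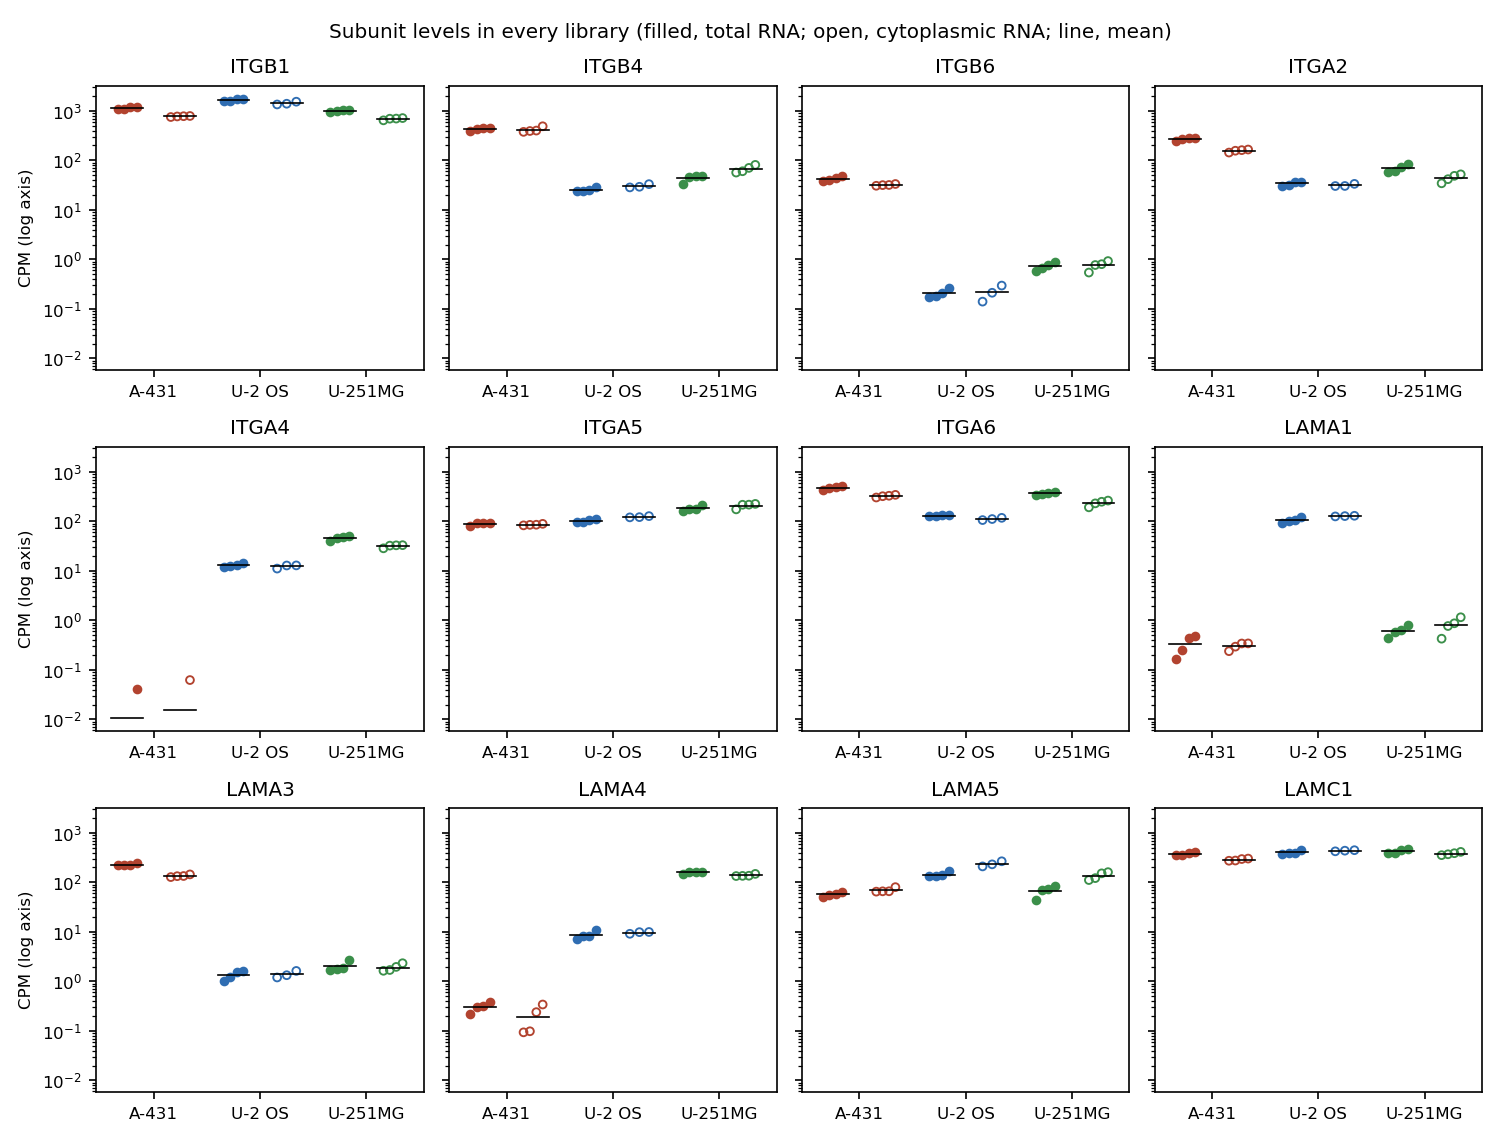
CPM of 12 members in the 23 compared libraries on a log axis, filled points for total RNA and open points for RNA labelled cytoplasmic, ordered from lowest to highest within each group, with a line at the group mean. Libraries without a count are not drawn. LAMA3 and ITGB6 in A-431, LAMA1 in U-2 OS and LAMA4 and ITGA4 in U-251MG stand apart from the other lines in both kinds of RNA.

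Among the α chains of laminin receptors, ITGA3, which binds laminins with α3 and α5, was the most abundant per kb in each line. Its total RNA libraries held 610.1, 618, 530.3 and 574 CPM in A-431, 369, 356, 380.4 and 329.6 in U-2 OS and 679, 749, 762 and 605 in U-251MG. U-2 OS was below both, by 1.65-fold against A-431 (edgeR adjusted p = 1.3e-09) and 1.94-fold against U-251MG (edgeR adjusted p = 7.4e-12), short of the 2-fold threshold in each case. ITGA6, the partner of both β1 and β4, was at 489, 432, 509.6 and 483 CPM in A-431, 134, 129, 126 and 134 in U-2 OS and 357, 372, 349 and 390.5 in U-251MG. No ranges overlapped. A-431 and U-251MG were 3.72-fold and 2.79-fold above U-2 OS (edgeR adjusted p = 2.0e-19 and 4.2e-17), and A-431 was 1.33-fold above U-251MG, under 2-fold. ITGA7, the laminin receptor chain of muscle, was nearly missing from A-431 at 0.405 ± 0.176 CPM and stood at 23.6 ± 2.48 in U-2 OS and 14.4 ± 2.53 in the U-251MG libraries, differences of 55.6-fold and 33.6-fold against A-431 (edgeR adjusted p = 1.3e-18 and 4.8e-17). Within this group of α chains, ITGA3 made up 59.1% ± 3.16 in A-431, 72.2% ± 1.28 in U-2 OS and 68.1% ± 2.98 in the U-251MG libraries, and ITGA6 40.8%, 22.2% and 30.3%, with ITGA7 the remainder.

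Because α6β4 needs a chain of each kind, the levels of ITGA6 and ITGB4 were set against each other per kb. Their ratio in total RNA was 1.13 ± 0.156 in A-431 (SD, n = 4), 5.18 ± 0.549 in U-2 OS and 8.76 ± 2.28 in the U-251MG libraries. In A-431 the mean levels per kb were thus close to equal, and in both other lines ITGA6 stood several times above ITGB4 per kb. The summed level of the 11 α chains α1 to α11, all partners of β1, was 0.839 ± 0.0579 of ITGB1 in A-431, 0.302 ± 0.0250 in U-2 OS and 1.01 ± 0.0734 in the U-251MG libraries. U-2 OS thus had the highest ITGB1 level per kb relative to these α chains. These ratios are of RNA levels per kb and take no account of protein. The canonical transcripts of ITGA6 and ITGB4 differ in GC content (42.5% and 63.6%), and its part in their ratio was not tested.

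The RGD-binding α chains recognise fibronectin, vitronectin and latent TGF-β. ITGAV, the most abundant of them per kb, was at 282, 228, 299 and 269 CPM in A-431, 386, 383, 382 and 391 in U-2 OS and 423, 479, 512 and 464 in U-251MG. The lines did not overlap, with A-431 lowest, and no ratio reached 2-fold. ITGA5, the fibronectin receptor chain, had 92.4, 92.9, 79.6 and 91.1 CPM in A-431, 109, 99.1, 111 and 97.8 in U-2 OS and 164, 213, 181 and 181 in U-251MG. U-251MG was highest in every library, 2.04-fold above A-431 (edgeR adjusted p = 3.5e-12) and 1.77-fold above U-2 OS, which is under the threshold. A-431 library 11 was apart within its group, at 79.6 CPM beside a mean of 92.1. ITGA2B, the platelet fibrinogen receptor chain, averaged 1.12 CPM in A-431, 0.439 in U-2 OS and 0.0941 in the U-251MG libraries, and was called higher in A-431 against both at these low levels (2.56-fold and 11.9-fold, edgeR adjusted p = 7.4e-04 and 1.4e-07). Over alternatives of scaling, filter, test or libraries, the call against U-2 OS was lost in 9 of 16, DESeq2 and single left-out libraries 1, 2, 3, 4, 9, 11 or 12 among them, with log2 ratios of 1.13 to 1.53. Ranges of log2 ratios beside a lost call are over all alternatives of that comparison. ITGA8 averaged 0.168 CPM in U-2 OS and had no count in total RNA of the other lines. Per kb, ITGAV stood at 0.585 ± 0.0697 of the summed ITGB5, ITGB6 and ITGB8 in A-431, 0.949 ± 0.0654 in U-2 OS and 1.60 ± 0.0707 in the U-251MG libraries, where ITGB3 is not included.

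Collagen receptors are formed by 4 α chains with β1. ITGA2, the collagen receptor chain of epithelia and platelets (ENSG00000164171, chr5:52285170-52390609), had 268, 246, 278 and 282 CPM in A-431, 36.7, 31.8, 37.4 and 30.7 in U-2 OS and 62.1, 73.2, 59.6 and 84.7 in U-251MG. A-431 was 7.99-fold above U-2 OS (edgeR adjusted p = 8.4e-18) and 3.91-fold above U-251MG (edgeR adjusted p = 1.0e-14), and U-251MG was 2.04-fold above U-2 OS. All 3 lines were apart, but the call between U-251MG and U-2 OS was lost in 5 of 16 alternatives, among them without library 2, 4 or 8, with log2 ratios of 0.85 to 1.12. ITGA1, a chain of mesenchymal cells that prefers collagen IV, ran the other way, at 3.45, 2.59, 2.74 and 2.55 CPM in A-431, 7.64, 8.98, 10.2 and 8.69 in U-2 OS and 26.3, 26.7, 30.6 and 27.1 in U-251MG. It was 3.09-fold lower in A-431 than in U-2 OS (edgeR adjusted p = 7.3e-12) and 9.55-fold lower than in U-251MG (edgeR adjusted p = 1.5e-18). Part of its exons is shared with PELO on the same strand, so reads there cannot be assigned. ITGA11, a fibroblast collagen receptor chain, was at 3.34 ± 0.161 CPM in U-2 OS, 0.111 in the U-251MG libraries and had 1 count in all A-431 total libraries, a U-2 OS over A-431 ratio of 347 with a counting interval of 62.2 to 13700. ITGA10, a cartilage chain, averaged 0.170 CPM in A-431, 1.60 in the U-251MG libraries and 0.851 in U-2 OS and was called lower in A-431 against both. Per kb, ITGA2 made up 99.1% of the collagen receptor α chains in A-431, 76.7% in U-2 OS and 75.1% in the U-251MG libraries.

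ITGA4, which binds VCAM-1 and fibronectin (ENSG00000115232, chr2:182321929-182403667), was the integrin gene with the sharpest absence from A-431. The U-251MG libraries held 39.4, 49.7, 48.5 and 46.6 CPM and the U-2 OS libraries 13.4, 12.6, 12.1 and 14.2, whereas the 4 A-431 total libraries together held 1 count. The U-251MG over A-431 ratio was 4830, with a counting interval of 867 to 191000, and that of U-2 OS over A-431 was 1360 (244 to 53700). U-251MG was 3.51-fold above U-2 OS (edgeR adjusted p = 3.9e-15). The last exons of ITGA4 and CERKL overlap on opposite strands, and reads there cannot be assigned without strand. ITGA9, its relative that binds tenascin, stood at 0.157 CPM in A-431, 0.112 in the U-251MG libraries and 0.763 in U-2 OS and was called higher in U-2 OS against both.

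Of the 4 leukocyte α chains, ITGAE, which binds E-cadherin, was present in all lines, at 14.5 ± 0.950 CPM in A-431, 10.3 ± 1.39 in U-2 OS and 21.9 ± 2.49 in the U-251MG libraries, and was called between U-251MG and U-2 OS only (2.13-fold, edgeR adjusted p = 1.2e-09). Its exons overlap HASPIN, an intronless gene on the opposite strand. ITGAM, a complement receptor chain of myeloid cells, averaged 1.06 CPM in A-431, 0.186 in U-2 OS and 0.137 in the U-251MG libraries and was called higher in A-431. The related ITGAX was at 1.72 CPM in U-2 OS, 0.136 in A-431 and 0.0305 in U-251MG. The LFA-1 chain ITGAL was at 0.0111 CPM or less in total RNA of each line. In the same total libraries the pan-leukocyte marker PTPRC averaged 0.0301 CPM in A-431, 0.157 in the U-251MG libraries and 0.773 in U-2 OS.

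The leading laminin α chain per kb was LAMA3 in A-431 and LAMA4 in U-251MG. In U-2 OS total RNA, LAMA5 and LAMA1 had overlapping shares of the α chains, 42.9 to 50.8% and 38.8 to 47.8%. LAMA3, the α chain of laminin 332 (ENSG00000053747, chr18:21269417-21536186), was at 225, 225, 223 and 244 CPM in the A-431 total libraries, 1.01, 1.53, 1.60 and 1.22 in U-2 OS and 1.77, 2.68, 1.69 and 1.88 in U-251MG. A-431 was 172-fold above U-2 OS (edgeR adjusted p = 4.1e-26) and 114-fold above U-251MG (edgeR adjusted p = 5.0e-26), the greatest A-431 excess of any laminin gene. LAMA4 (ENSG00000112769, chr6:112429134-112576141) averaged 159.6 ± 6.38 CPM in U-251MG, 8.57 ± 1.51 in U-2 OS and 0.304 ± 0.0635 in A-431 (SD, n = 4). U-251MG was 18.5-fold above U-2 OS (edgeR adjusted p = 6.0e-23) and 515-fold above A-431 (edgeR adjusted p = 4.9e-26). LAMA1 (ENSG00000101680, chr18:6941741-7117796) averaged 107 ± 12.4 CPM in U-2 OS, 0.337 ± 0.151 in A-431 and 0.620 ± 0.154 in U-251MG. U-2 OS was 299.9-fold above A-431 (edgeR adjusted p = 2.1e-24) and 168-fold above U-251MG (edgeR adjusted p = 6.5e-24). LAMA2, the muscle and nerve chain, followed LAMA1 in being highest in U-2 OS, at 12.2 CPM against 0.693 in A-431 and 1.52 in U-251MG, 16.96-fold and 7.90-fold higher (edgeR adjusted p = 4.9e-17 and 4.1e-15).

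LAMA5, the widespread α chain of adult basement membranes, was present in all 3 lines. It was at 58.3, 65.3, 50.5 and 56.0 CPM in A-431, 132, 139, 166 and 133 in U-2 OS and 71.7, 71.9, 85.9 and 43.6 in U-251MG. U-2 OS was above both, by 2.44-fold over A-431 (edgeR adjusted p = 6.0e-05) and 2.10-fold over U-251MG (edgeR adjusted p = 2.6e-04), while the A-431 and U-251MG libraries overlapped, with a log2 ratio of -0.22 (95% interval -0.62 to 0.19). The call between U-2 OS and U-251MG was lost in 3 of 16 alternatives, with an offset for the GC content of genes and without library 3 or 8, with log2 ratios of U-251MG over U-2 OS of -1.22 to -0.86. As a share of the 5 laminin α chains per kb in total RNA, LAMA3 made up 80.6% ± 1.79 in A-431 and LAMA4 77.7% ± 4.72 in U-251MG (SD, n = 4). In U-2 OS, LAMA5 made up 47.7% ± 3.58 and LAMA1 42.5% ± 3.96. LAMA5 took 18.9% in A-431 and 20.9% in U-251MG. The LAMA3 share is per kb of the long canonical transcript, and reads of the shorter form count toward the same gene.

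**Figure D3:**
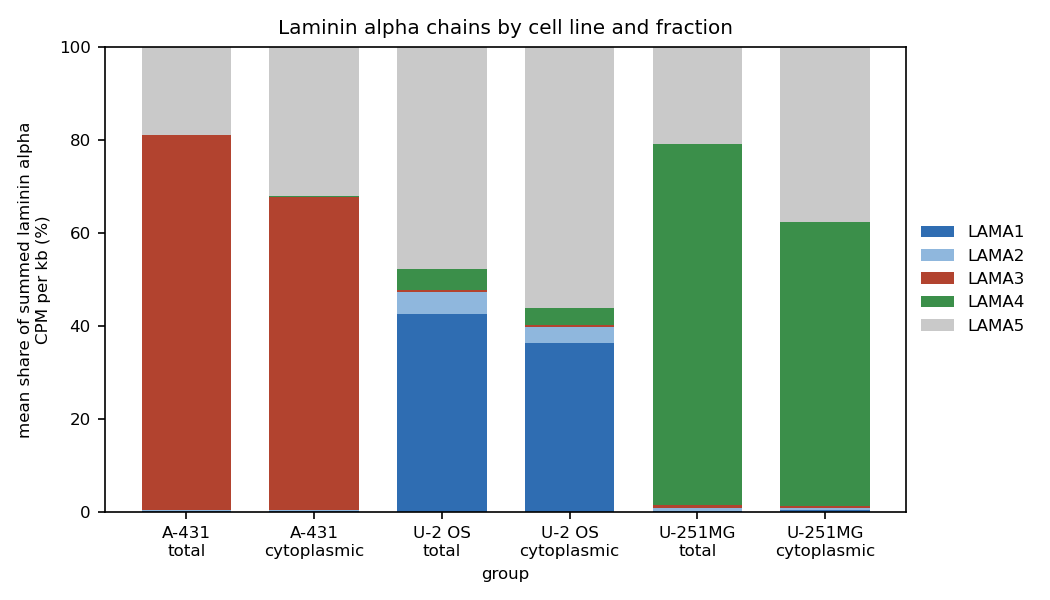
Mean share, in percent, of each laminin α chain in the summed CPM per kb of the 5 chains, for the 6 groups. LAMA3 fills most of the A-431 bars, LAMA4 most of the U-251MG bars, and LAMA5 with LAMA1 most of the U-2 OS bars.

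In total RNA the β chains and LAMC1 differed by less than 3-fold between any 2 lines, whereas LAMC3 was found in U-2 OS and hardly elsewhere. LAMB1, the β chain of most laminins, was at 392, 377, 377 and 425 CPM in A-431, 242, 213, 234 and 219.5 in U-2 OS and 479, 523, 499 and 525 in U-251MG, and U-251MG was 2.22-fold above U-2 OS (edgeR adjusted p = 5.5e-15). LAMB2, a β chain of synapses, kidney and vessels, had 55.4, 57.7, 57.5 and 54.4 CPM in A-431, 139, 127, 155 and 129.6 in U-2 OS and 169, 173, 161 and 122 in U-251MG. All A-431 libraries lay below all others, by 2.41-fold against U-2 OS (edgeR adjusted p = 1.4e-11) and 2.72-fold against U-251MG (edgeR adjusted p = 1.7e-12). LAMB3, the β chain of laminin 332, was at 165 ± 12.6 CPM in A-431, 122 ± 7.39 in U-2 OS and 117 ± 17.7 in the U-251MG libraries, so the gene that partners LAMA3 was not called in any of the 3 comparisons. LAMC1, the common γ chain, was at 387, 360.0, 354 and 414 CPM in A-431, 453, 378, 394 and 391 in U-2 OS and 401, 466, 401 and 456 in U-251MG. The 3 ranges overlapped, and the 95% interval of the log2 ratio was -0.21 to 0.07 for A-431 over U-2 OS and -0.30 to -0.01 for A-431 over U-251MG. LAMC3, a γ chain with few known sites of expression, was found in U-2 OS at 11.2 ± 1.58 CPM, with no count in the A-431 total libraries and 1 in those of U-251MG. U-2 OS was at least 388-fold higher than A-431, taking 3 counts over the A-431 libraries as the floor, and the ratio to U-251MG was 1110 with a counting interval of 199 to 43800.

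Per kb, LAMB1 made up 57.7% of the β chains in A-431, 42.5% in U-2 OS and 61.3% in the U-251MG libraries, LAMB3 34.0%, 32.0% and 19.91%, and LAMB2 the rest. Summed β chains stood at 2.53 ± 0.107 of the summed γ chains LAMC1 and LAMC3 in A-431, 1.81 ± 0.114 in U-2 OS and 2.70 ± 0.129 in the U-251MG libraries. Summed α chains stood at 0.560 ± 0.0271, 0.50 ± 0.0410 and 0.527 ± 0.0591. In each line the α chains were thus the scarcest transcripts of these 3 kinds per kb of canonical transcript. The A-431 α sum is mostly LAMA3, and reads of its shorter form are divided by the long length, which lowers this sum. In addition, 1 γ gene of the family is outside the list and so outside the sums.

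Of the 34 members, 29 had more than 3 counts in some total RNA library of A-431, 33 in U-2 OS and 29 in the U-251MG libraries. A mean of at least 100 CPM was reached by 11, 12 and 11. In A-431 the order of levels per kb began with ITGB1 at 307 CPM per kb, ITGA3 at 119, ITGA6 at 82.3, ITGB4 at 73.2 and LAMB1 at 69.5. In U-2 OS it began with ITGB1 at 444, ITGA3 at 73.4, ITGAV at 54.8, ITGB5 at 51.5 and LAMC1 at 50.9. U-251MG began with ITGB1 at 269, ITGA3 at 143, LAMB1 at 89.7, ITGAV at 66.7 and ITGA6 at 63.1.

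The study compared cytoplasmic with total RNA to ask how nuclear transcripts affect the levels measured in total RNA. The log2 ratio of total RNA over the libraries labelled cytoplasmic was tested within each line, and a member was called at an adjusted p under 0.001 with no limit on size. In A-431, 9 of 23 tested members were higher in total RNA and 0 lower, where 10.2% and 9.51% of all 16376 tested genes were called. At an unadjusted p under 0.05 by edgeR, 4 members were lower, and DESeq2 called 9 higher and 1 lower. For U-2 OS the counts were 2 higher and 3 lower of 30, with 4.75% and 3.61% of all genes called, and 1 higher and 4 lower with RLE in place of TMM scaling. In U-251MG, 6 of 25 were higher and 1 lower, with 5.93% and 6.98% of all genes called. The median ratio of the tested members was 0.07 in A-431, -0.17 in U-2 OS and -0.08 in the U-251MG libraries, and that of all tested genes within 0.02 of 0 in each line.

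**Figure D4:**
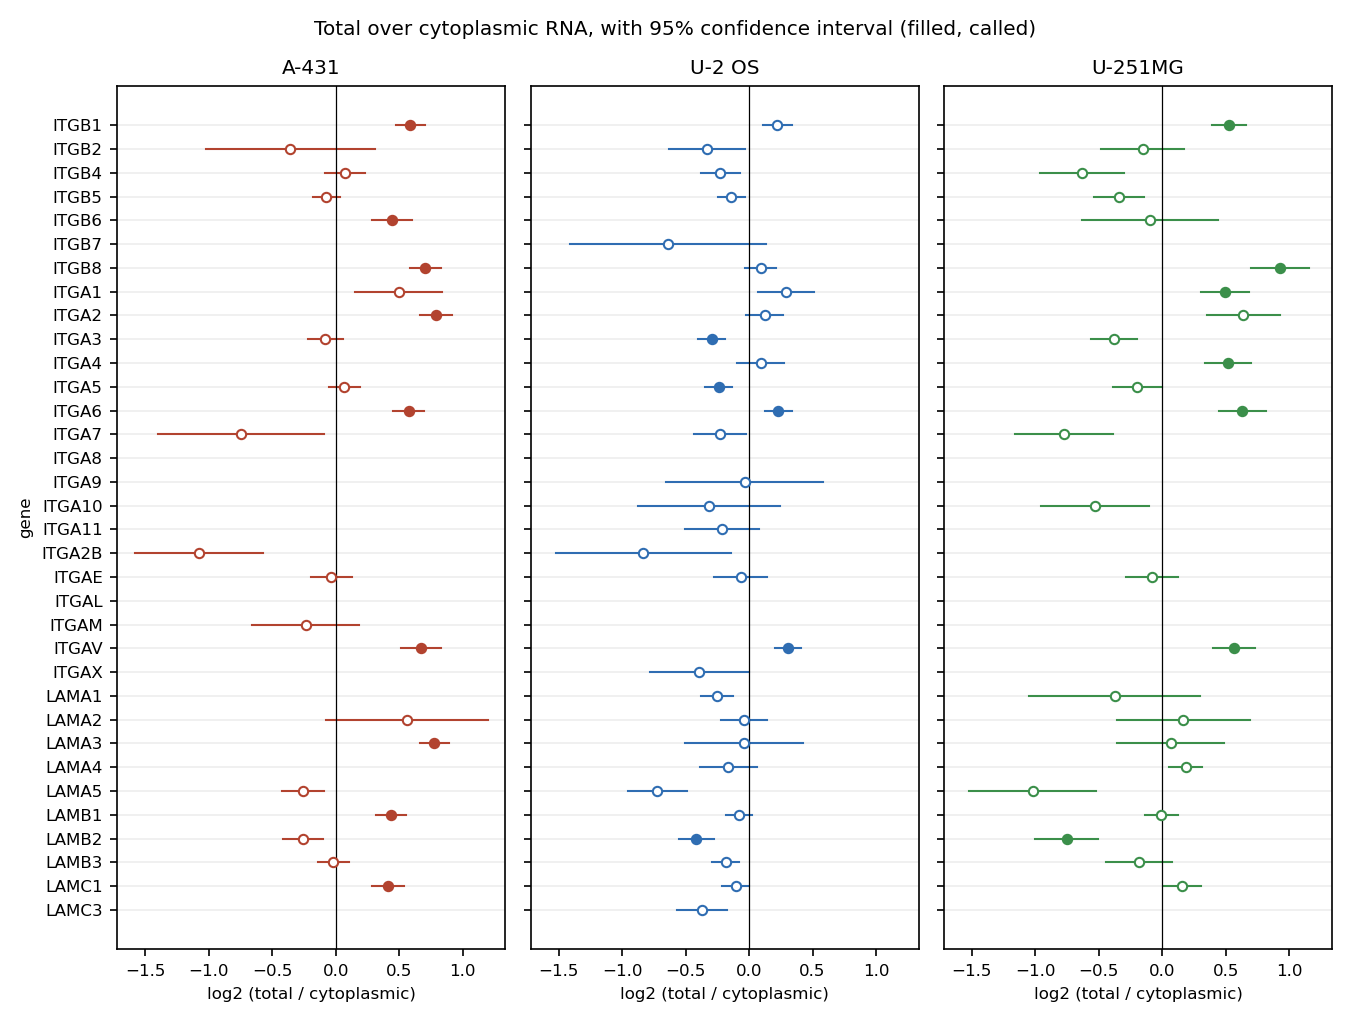
Log2 ratio of total over cytoplasmic RNA for each tested member in the 3 lines, with 95% intervals, filled where the adjusted p was under 0.001. ITGAV, ITGA6, ITGB1, ITGB8 and ITGA2 lie to the right of 0 in A-431 and U-251MG, and LAMB2 lies to the left in all 3 lines.

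Among the integrin genes higher in A-431 total RNA, ITGA2 had the greatest ratio. Its A-431 cytoplasmic libraries held 161, 157, 166 and 144 CPM, all below the total RNA libraries, a log2 ratio of 0.79 ± 0.06 (edgeR adjusted p = 9.4e-08). The U-2 OS cytoplasmic libraries, at 30.3, 33.6 and 30.4 CPM, overlapped total RNA, and those of U-251MG were at 34.4, 41.7, 52.2 and 48.7, below total RNA but not called (0.64 ± 0.13, edgeR adjusted p = 0.0023). ITGB8 had 50.5, 54.9, 51.8 and 50.7 CPM in A-431 cytoplasmic RNA, 49.2, 52.5 and 58.6 in U-2 OS and 33.1, 46.0, 45.7 and 38.7 in U-251MG. The ratio was 0.71 ± 0.06 in A-431 (edgeR adjusted p = 1.9e-07) and 0.93 ± 0.11 in U-251MG (edgeR adjusted p = 1.0e-04), the greatest of any member there, and 0.09 ± 0.06 in U-2 OS, not called.

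ITGAV and ITGA6 were the 2 members called higher in total RNA in all 3 lines, but these calls did not hold under every alternative outside A-431. ITGAV cytoplasmic libraries held 181, 168, 182 and 153 CPM in A-431, 295, 306 and 339 in U-2 OS and 345, 299, 322 and 287 in U-251MG, below total RNA in each line. Its ratio was 0.67 ± 0.08 in A-431, 0.31 ± 0.05 in U-2 OS and 0.56 ± 0.08 in the U-251MG libraries (edgeR adjusted p = 4.1e-06, 3.0e-05 and 1.9e-04). For ITGA6 the cytoplasmic libraries stood at 329.6, 322, 344 and 304 CPM in A-431, 112, 106 and 118 in U-2 OS and 192, 231, 263 and 249 in U-251MG, again without overlap. Its ratio was 0.57 ± 0.06, 0.23 ± 0.05 and 0.63 ± 0.09 (edgeR adjusted p = 1.8e-06, 9.4e-04 and 1.7e-04). The U-2 OS call of ITGA6 was lost in 12 of 16 alternatives, RLE scaling and the omission of library 1, 2, 4, 14, 15 or 16 among them (log2 ratios 0.13 to 0.26), and that of ITGAV in 6 of 16, among them without library 14 or 15 (0.12 to 0.37). In U-251MG the ITGA6 call was lost in 4 of 16, among them without library 18 (0.42 to 0.77), and that of ITGAV in 5 of 16, among them without library 6 or 18 (0.21 to 0.61). ITGB1 had 751, 772, 781 and 789 CPM in A-431 cytoplasmic RNA, 1348, 1394 and 1533 in U-2 OS and 716, 699, 695 and 644 in U-251MG. It was called in A-431 (0.59 ± 0.05, edgeR adjusted p = 6.7e-07) and U-251MG (0.53 ± 0.06, edgeR adjusted p = 1.1e-04), and its U-2 OS ratio of 0.22 ± 0.06 did not pass (edgeR adjusted p = 0.0022), although the 2 kinds of library did not overlap there either.

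ITGB6 was called in A-431, where its cytoplasmic libraries held 33.4, 30.7, 31.9 and 31.6 CPM (0.44 ± 0.08, edgeR adjusted p = 1.5e-04). In the other lines it averaged 0.216 and 0.760 CPM in cytoplasmic RNA, with libraries at 0.212, 0.296 and 0.140 in U-2 OS and 0.543, 0.801, 0.926 and 0.770 in U-251MG. ITGA4 was called in U-251MG, with cytoplasmic libraries at 28.6, 32.8, 33.1 and 32.38 CPM (0.52 ± 0.08, edgeR adjusted p = 4.2e-04), and not in U-2 OS, where they held 12.9, 11.1 and 12.9. The A-431 cytoplasmic libraries held 2 counts of ITGA4 in all, with 0.0624, 0, 0 and 0 CPM. ITGA1 was likewise called in U-251MG, with cytoplasmic libraries at 19.3, 18.3, 21.6 and 18.3 CPM (0.49 ± 0.09, edgeR adjusted p = 6.8e-04). Of the alternatives, 8 of 16 lost the ITGA4 call, among them those without library 6, 7, 17, 18 or 20 (log2 ratios 0.19 to 0.58), and 9 of 16 that of ITGA1, among them those without library 5, 6, 7, 17, 18 or 20 (0.16 to 0.70). In A-431 and U-2 OS its cytoplasmic libraries, at 1.53, 2.30, 2.32 and 1.98 and 7.24, 7.33 and 7.37 CPM, also lay below total RNA without a call.

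The α chains ITGA3 and ITGA5 went the other way in U-2 OS. ITGA3 cytoplasmic libraries held 616, 569, 614 and 696 CPM in A-431, 441, 466 and 416 in U-2 OS and 873, 984, 871 and 865 in U-251MG, and its U-2 OS ratio was -0.29 ± 0.05 (edgeR adjusted p = 7.5e-05). The ratios of -0.08 ± 0.07 in A-431 and -0.38 ± 0.08 in U-251MG were not called. ITGA5 had 85.6, 85.1, 83.1 and 89.2 CPM in A-431 cytoplasmic RNA, 121, 128 and 122 in U-2 OS and 175, 217, 218 and 226 in U-251MG, with a U-2 OS ratio of -0.24 ± 0.05 (edgeR adjusted p = 7.5e-04). This ITGA5 call was lost in 9 of 16 alternatives, the GC offset and single omissions of library 2, 4, 14, 15 or 16 among them (log2 ratios -0.27 to -0.09), and the ITGA3 call in 6 of 16, among them without library 14 or 15 (-0.35 to -0.09). ITGB4 cytoplasmic libraries stood at 392, 377, 400.1 and 489 CPM in A-431, 29.3, 33.1 and 28.5 in U-2 OS and 81.1, 70.5, 56.8 and 60.3 in U-251MG, and those of ITGB5 at 211, 217, 221 and 236, 244, 267 and 247 and 203, 197, 162 and 164. Neither gene was called in a line, though U-251MG cytoplasmic libraries lay above total RNA for both.

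In the laminin genes, LAMA3 had 133, 135, 145 and 128 CPM in A-431 cytoplasmic RNA, below every total RNA library, and a ratio of 0.78 ± 0.05 (edgeR adjusted p = 4.1e-08). In U-2 OS and U-251MG its cytoplasmic libraries were at 1.20, 1.63 and 1.33 and 1.70, 2.33, 1.64 and 1.96 CPM and overlapped total RNA. LAMB1 had 277, 281, 303 and 313 CPM in A-431 cytoplasmic RNA, 236, 242 and 242 in U-2 OS and 538, 489, 499 and 482 in U-251MG, and LAMC1 had 276, 274, 296 and 302, 424, 437 and 447 and 355, 369.6, 413 and 388. Both were called in A-431 alone (0.44 ± 0.06 and 0.41 ± 0.06, edgeR adjusted p = 1.8e-05 and 3.4e-05). LAMB2 was the opposite case, with cytoplasmic libraries at 60.6, 60.9, 71.2 and 79.2 CPM in A-431, 175, 205 and 172 in U-2 OS and 291, 273, 236 and 239 in U-251MG, above total RNA in every line. It was called lower in total RNA in U-2 OS (-0.41 ± 0.07, edgeR adjusted p = 1.3e-04) and U-251MG (-0.75 ± 0.11, edgeR adjusted p = 4.0e-04). The U-251MG call was lost in 8 of 16 alternatives, among them without library 5, 6, 7, 17 or 18 (log2 ratios -0.80 to -0.32), and the U-2 OS call in 5 of 16, among them with all deposited libraries but without loss when 1 was left out (-0.55 to -0.22). LAMA5, at 66.0, 65.0, 66.1 and 80.2 CPM in A-431 cytoplasmic RNA, 231, 267 and 210.1 in U-2 OS and 152, 161, 122 and 112 in U-251MG, had larger ratios of -0.72 ± 0.10 in U-2 OS and -1.02 ± 0.22 in the U-251MG libraries that did not pass (edgeR adjusted p = 0.0011 and 0.0056).

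The mean shares of the laminin α chains differed between total and cytoplasmic RNA, which was not tested. Of these chains, LAMA3 was called between fractions in A-431 alone, and LAMA5, with 66.4% GC in its canonical transcript, in no line. In cytoplasmic RNA LAMA3 made up 67.3% ± 3.08 in A-431 and LAMA4 61.0% ± 4.70 in U-251MG (SD, n = 4), while LAMA5 made up 32.1% in A-431, 56.2% in U-2 OS and 37.8% in the U-251MG libraries. The chain with the highest mean share was the same as in total RNA in each line. The ITGA6 over ITGB4 ratio per kb was 0.805 ± 0.117 in A-431, 3.77 ± 0.480 in U-2 OS (n = 3) and 3.65 ± 1.01 in U-251MG, lower than in total RNA in each.

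Differences of the fraction ratio between lines were tested as interaction terms, called at an adjusted p under 0.05. Of 32 tested members, 6 had a higher ratio in A-431 than in U-2 OS and 0 a lower one, where 0.947% and 1.17% of all 19948 tested genes were called. Against U-251MG the ratio was higher in A-431 for 1 member and lower for 0, with 0.120% and 0.0401% of all genes called. U-251MG exceeded U-2 OS in 3 members and was below it in 0, with 0.907% and 0.762% of all genes called. The median difference over the tested members was 0.29, 0.23 and 0.05 in the 3 comparisons, and that of all tested genes -0.02, -0.02 and -0.01.

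Among the called members, the greatest differences between A-431 and U-2 OS were those of LAMA3 (0.80 ± 0.20, edgeR adjusted p = 0.028) and ITGA2 (0.66 ± 0.16, edgeR adjusted p = 0.025), the epithelial laminin chain and the epithelial collagen receptor chain. ITGB8 (0.61), LAMC1 (0.51), LAMB1 (0.50) and ITGB1 (0.35) followed, with edgeR adjusted p from 8.3e-04 to 0.028 over the 6. LAMB1 was the member called between A-431 and U-251MG (0.41, edgeR adjusted p = 0.02). Between U-251MG and U-2 OS the called members were ITGB8 (0.86 ± 0.12, edgeR adjusted p = 3.5e-04), ITGA6 (0.43 ± 0.10, edgeR adjusted p = 0.032) and ITGB1 (0.33 ± 0.08, edgeR adjusted p = 0.037). Of 22 alternatives, 8 lost the LAMA3 call and 7 that of ITGA2 between A-431 and U-2 OS, and 11 each lost the ITGA6 and ITGB1 calls between U-251MG and U-2 OS. No member had a called difference in the other direction by edgeR or by DESeq2, and at an unadjusted edgeR p under 0.05 there were 0, 1 and 3 such members in the 3 comparisons.

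GC content and flow cell moved with the fraction ratios. Across tested members the ratio fell with the GC content of the canonical transcript, with Pearson's r of -0.80 over 23 genes in A-431, -0.85 over 30 in U-2 OS and -0.89 over 25 in U-251MG, where the genes share the same libraries and are not independent. Members under 45% GC had median log2 ratios of 0.59 (7 genes) in A-431, 0.22 (7) in U-2 OS and 0.55 (8) in the U-251MG libraries, and members at 55% or more had -0.26 (9), -0.35 (12) and -0.51 (8). ITGAV, at 38.3% GC, and LAMB2, at 60.3%, lie near the 2 ends of this order. With an offset for GC content in each library, 12 members were called in A-431, 8 of them among the 9 above, against 1 in U-2 OS and 0 in the U-251MG libraries. All total RNA libraries were run on the same flow cell, as were cytoplasmic libraries 14, 19 and 20, and the other cytoplasmic libraries compared were run on another, with none given for library 13. In A-431, fraction and flow cell cannot be told apart, and the interaction terms that involve A-431 carry the same limit. On the first flow cell alone, 1 member was called in U-2 OS and 1, ITGB8, in U-251MG, from 1 and 2 cytoplasmic libraries. Counts over all genes with the GC offset or on 1 flow cell are not given here, and the part of GC content in the ratios was not tested.

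**Figure D5:**
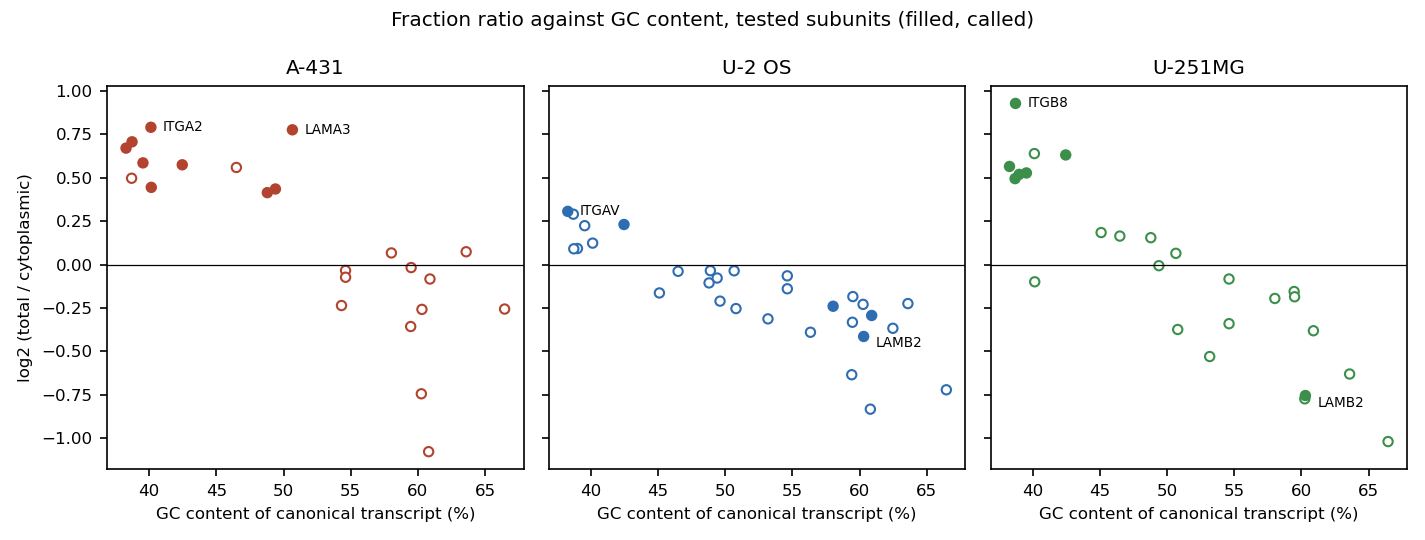
Log2 ratio of total over cytoplasmic RNA against the GC content of the canonical transcript, in percent, for the tested members of each line, filled where called. The points run from upper left to lower right in all 3 lines, with ITGA2 and LAMA3 named in A-431, ITGAV and LAMB2 in the U-2 OS panel and ITGB8 and LAMB2 in the U-251MG panel.

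The counts of called fraction ratios in U-2 OS and U-251MG also rested on single libraries. In U-2 OS, where 5 members were called, 1 was called without library 14, 2 without 15, 3 without 2 or without 4, and 8 without 3. In U-251MG, where 7 were called, 2 were called without library 18, 3 without 6 and 4 without 7 or without 17. With all deposited libraries, including 13, the U-2 OS count was 3. The A-431 count stayed between 8 and 10 when any 1 library was left out. With 1 library left out, calls over all tested genes moved too, from 459 to 2612 in U-2 OS and 533 to 1837 in U-251MG. In A-431 they lay between 1815 and 3874. For the interactions, calls over all genes were 157 to 549 for A-431 minus U-2 OS and 19 to 38 for A-431 minus U-251MG. For U-251MG minus U-2 OS they were 35 to 1121. The 6 calls between A-431 and U-2 OS were 3 without library 16, the 3 between U-251MG and U-2 OS were 1 without library 2, 6, 8, 16 or 18 and 6 without 5, and LAMB1 between A-431 and U-251MG was lost without 5, 12, 17, 21 or 22, while without library 6 the count was 2.

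Between lines, cytoplasmic RNA gave 7 members higher and 13 lower in A-431 than in U-2 OS, of 32 tested, where 17.3% and 21.7% of all 19344 tested genes were called. A-431 was higher than U-251MG in 7 and lower in 10 (16.8% and 15.1% of all genes), and U-251MG was higher than U-2 OS in 10 and lower in 8 (13.9% and 21.1%). The median log2 ratio of the members was -0.85, -0.57 and -0.11 in the 3 comparisons, that of all tested genes -0.03, -0.01 and -0.04. On the second flow cell alone, 7 were higher and 13 lower, 6 and 10, and 7 and 8. LAMA3 was 98.9-fold and 70.4-fold above U-2 OS and U-251MG in A-431 cytoplasmic RNA (edgeR adjusted p = 3.6e-21 and 5.2e-22). ITGB6 was 148-fold and 41.5-fold above them (edgeR adjusted p = 5.4e-19 and 3.1e-19), and ITGB4 13.9-fold and 6.14-fold (edgeR adjusted p = 2.9e-12 and 3.1e-11). LAMA4 was 14.6-fold above U-2 OS in U-251MG (edgeR adjusted p = 1.1e-18). LAMA1 was 406-fold above A-431 in U-2 OS (edgeR adjusted p = 2.7e-21). The ITGA4 level of U-251MG was 1920 times that of A-431 (counting interval 532 to 15900), and that of U-2 OS 746 times (207 to 6160).

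Several calls in cytoplasmic RNA have no counterpart in total RNA, and whether the kinds of RNA differ there is given by the interaction terms. ITGB1 was 2.03-fold lower in U-251MG than in U-2 OS (edgeR adjusted p = 3.1e-12) and ITGA3 2.08-fold higher (edgeR adjusted p = 7.7e-11), each just past the 2-fold threshold that it missed in total RNA. ITGB4 was 2.26-fold higher in U-251MG than in U-2 OS (edgeR adjusted p = 1.1e-06). LAMA1 was lower in A-431 than in U-251MG (2.63-fold, edgeR adjusted p = 9.9e-05) at levels under 1 CPM in both. ITGA10 was 2.18-fold higher in U-251MG than in U-2 OS (edgeR adjusted p = 1.4e-04). ITGB7, not tested in total RNA, was called higher in A-431 and in U-2 OS than in U-251MG, at 0.289, 0.535 and 0.0360 CPM. The ITGB7 call of A-431 over U-251MG was lost in 7 of 17 alternatives, among them without library 18, 19, 20, 21, 23 or 24 (log2 ratios 2.31 to 4.10). That of ITGA10 was lost in 6 of 17, among them without library 15, 16 or 19 (0.89 to 1.36), and that of ITGB1 in 3 of 17, among them without library 16 or 20 (-1.12 to -0.96). Of these genes, the interaction term of the same lines was called for ITGB1 alone. Conversely, ITGA9 between A-431 and U-2 OS, and ITGA2, ITGA2B and LAMA5 between U-251MG and U-2 OS, were called in total RNA and not in cytoplasmic RNA. This ITGA2B call was lost in 7 of 16 alternatives, among them without library 1, 3, 4, 5, 6 or 8 (log2 ratios of U-251MG over U-2 OS -2.96 to -1.76).

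Partners of the integrins and laminins were read from lists of other genes. In total RNA, 38.8% of all tested genes were called between A-431 and U-2 OS, 31% between A-431 and U-251MG and 35.7% between U-251MG and U-2 OS, in either direction. Of 22 talin, kindlin and focal adhesion adaptor genes tested in total RNA, 3 were higher and 9 lower in A-431 than in U-2 OS, 4 and 6 against U-251MG, and 3 higher and 7 lower in U-251MG than in U-2 OS. Talin itself (TLN1), which binds the β tails, averaged 273 CPM in A-431, 562 in U-2 OS and 553 in the U-251MG libraries, a log2 ratio of -1.02 ± 0.08 for A-431 over U-2 OS (edgeR adjusted p = 5.4e-11). Vinculin (VCL), its actin-binding partner, averaged 539.7, 300.5 and 678 CPM. Of 14 genes of focal adhesion kinase and Src signalling, 2 were higher and 4 lower in A-431 than in U-2 OS, 2 and 3 against U-251MG, and 3 and 2 in U-251MG against U-2 OS. The kinase PTK2 averaged 109.8 CPM in A-431, 147 in the U-251MG libraries and 245 in U-2 OS, and the Src family kinase YES1 161, 324 and 366.

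Of 15 tested basement membrane partners of laminins, 3 were higher and 5 lower in A-431 than in U-2 OS, 6 and 3 against U-251MG, and 1 and 5 in U-251MG against U-2 OS. COL4A2, a chain of the collagen IV network, averaged 223 CPM in A-431, 421 in U-2 OS and 306 in the U-251MG libraries, and the laminin-binding proteoglycan AGRN 226, 314 and 102. Of the 4 hemidesmosome partners of β4, COL17A1, a transmembrane collagen of hemidesmosomes, was higher in A-431, at 85.8 CPM against 4.63 in U-2 OS and 5.36 in the U-251MG libraries (log2 ratios 4.23 ± 0.18 and 4.01 ± 0.18, edgeR adjusted p = 6.2e-12 and 1.2e-11). It thus lay on the same side as ITGB4. Plectin (PLEC), which links β4 to keratin, lay on the other, at 259 CPM in A-431, 1209.5 in U-2 OS and 726 in the U-251MG libraries, with -2.20 ± 0.12 against U-2 OS (edgeR adjusted p = 1.7e-10). Of 9 tetraspanins and membrane partners, 2 were higher and 0 lower in A-431 than in U-2 OS, 2 and 2 against U-251MG, and 2 and 1 in U-251MG against U-2 OS. CAV1, a caveolar protein that associates with integrins, was among them (1.51 ± 0.07 for A-431 over U-2 OS, edgeR adjusted p = 1.7e-16).

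Between fractions, 19.7% of all tested genes were called in A-431, 8.36% in U-2 OS and 12.9% in the U-251MG libraries. The adaptors gave 2 higher and 1 lower in A-431 (22 tested), 1 and 4 in U-2 OS (21) and 2 and 1 in U-251MG (20). VCL was higher in A-431 total RNA (0.54 ± 0.05, edgeR adjusted p = 6.7e-07), and TLN1 lower in that of U-2 OS (-0.33 ± 0.06, edgeR adjusted p = 3.1e-04). The signalling genes gave 1 higher and 2 lower of 14 in A-431, 1 and 1 in U-2 OS and 0 and 3 in U-251MG. Basement membrane partners gave 2 higher and 1 lower of 14 in A-431, 0 and 1 of 16 in U-2 OS and 0 and 1 of 15 in U-251MG. The hemidesmosome list gave 2 higher and 0 lower of 4 in A-431, 0 and 2 in U-2 OS and 0 and 1 in U-251MG. PLEC was on both sides, higher in A-431 total RNA (0.55 ± 0.10, edgeR adjusted p = 2.5e-04) and lower in that of U-2 OS (-0.74 ± 0.09, edgeR adjusted p = 5.8e-05) and U-251MG (-0.71 ± 0.08, edgeR adjusted p = 9.7e-05), with an interaction term of 1.28 ± 0.14 for A-431 minus U-2 OS (edgeR adjusted p = 6.1e-06). Of the tetraspanins and membrane partners, 0 were called in A-431 and 0 higher and 1 lower in each of the other lines. The interaction of A-431 with U-2 OS was called for 1 adaptor, 0 signalling genes, 3 of 16 basement membrane partners, 2 hemidesmosome genes and 0 of the tetraspanin list, all with the higher ratio in A-431, where 2.12% of all genes were called in either direction.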

How the data were processed

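Poly(A)+ RNA of 24 libraries was sequenced, and the study places the 23 compared on 2 flow cells. Per the study's methods, the authors aligned reads with TopHat 1.1.4 and SAMtools 0.1.8 to GRCh37 and made the deposited counts per Ensembl gene with HTSeq 0.4.6, taking reads inside exons without regard to strand. Rows that name no gene stayed out of library sizes. The deposited RPKM values were made by the authors with another program and are not on the scale of the counts, so they served only for a limma alternative and for ordering other genes. Fold changes and p-values of the authors were not used.

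Counts were tested here with edgeR 4.0.16 (R 4.3.3, quasi-likelihood test, TMM scaling, filterByExpr, Benjamini-Hochberg adjustment over all tested genes), with limma 3.58.1 (log2 of RPKM plus 0.1) and DESeq2 1.42.0 as alternatives. ± after a log2 ratio is its SE, and after a mean the SD. The scripts were tested on simulated data. Counting intervals and floors (3 counts over a group) cover counting error only. Lengths, GC content and overlaps are from GENCODE v44lift37. The members and the other lists were chosen with earlier results of these data known. Per-library values are given for 17 members, those of highest RPKM and those with a called fraction ratio or interaction. Some members were thus chosen by the outcome of these tests. All other members are given by means, and other lists by up to 4 members of highest level.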

Additional observations from a re-analysis of the deposited data

Results flagged for a closer look

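A single library stood apart from the other 3 of its group in 7 of 125 groups tested, where chance gives about 1 in 20, or 6.2. ITGA3 was high in U-251MG cytoplasmic library 18, at 984.5 CPM beside a mean of 869.6 in the others. ITGA4 was low in U-251MG cytoplasmic library 17, at 28.6 CPM beside 32.8. LAMA4 was high in U-251MG cytoplasmic library 19, at 148.5 CPM beside 135.3. ITGB4 was low in U-251MG total library 8, at 32.6 CPM beside 47.8. ITGA5 was low in A-431 total library 11, at 79.6 CPM beside 92.1, and LAMA3 was high in A-431 total library 12, at 243.8 CPM beside 224.3. LAMA5 was high in A-431 cytoplasmic library 24, at 80.2 CPM beside 65.7.

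The fraction ratio differed between lines for 7 members by the interaction term. For A-431 minus U-2 OS the log2 differences were 0.80 for LAMA3, 0.66 for ITGA2, 0.61 for ITGB8, 0.51 for LAMC1, 0.50 for LAMB1 and 0.35 for ITGB1. For A-431 minus U-251MG it was 0.41 for LAMB1, and for U-251MG minus U-2 OS it was 0.86 for ITGB8, 0.43 for ITGA6 and 0.33 for ITGB1.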

How the results depend on the processing

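No paired analysis was possible because the labels share no replicate numbers between groups. The counts of members called between lines kept within 1.5 times under all alternatives, from 20 to 21, 14 to 15 and 13 to 16 in total RNA and from 20 to 21, 16 to 17 and 16 to 18 in cytoplasmic RNA when 1 library was left out, and no call changed direction. The A-431 fraction count (9) was 8 to 10 with 1 library left out. That of U-2 OS (5) was 10 at an adjusted p under 0.01, 9 with no filter, 1 with the GC offset, 0 with limma on RPKM, 3 with all deposited libraries, 1 on the first flow cell alone, 0 in 1 model over all groups and 1 to 8 with 1 library left out. That of U-251MG (7) was 13 at an adjusted p under 0.01, 12 with DESeq2, 0 with the GC offset, 0 with limma, 1 on the first flow cell, 13 in 1 model and 2 to 7 with 1 library left out. Interaction calls for A-431 minus U-2 OS (6) were 1 at an adjusted p under 0.001, 10 with the GC offset and 3 to 8 with 1 library left out. For A-431 minus U-251MG (1) they were 0 at 0.001, 3 with DESeq2, 2 with no filter, 2 with the GC offset, 0 with limma and 0 to 2 with 1 left out. For U-251MG minus U-2 OS (3) they were 1 at 0.001, 5 with DESeq2, 1 with the GC offset, 1 with all deposited libraries and 1 to 6 with 1 left out. The causes were not tested. In A-431, ITGB6 lost its fraction call with the GC offset, with limma and without library 9, LAMB1 and LAMC1 with limma, and the other 6 kept theirs under the 15 alternatives. ITGB8 for U-251MG minus U-2 OS and LAMB1 for A-431 minus U-2 OS kept theirs under all 22. Members near 0, such as ITGA8 and ITGAL, are limited by depth.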
